A study of Mus musculus with 27 samples.

Results

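Heat shock proteins and their J-domain cochaperones were described in ribosome-bound messenger RNA from striatal neurons of mice. The members were all genes of the array annotation whose symbol starts with Hspa, Hspb, Hspd, Hspe, Hsph, Hsp90, Dnaja, Dnajb or Dnajc, each measured by its brightest probe set over 27 arrays. This gave 72 of 18193 genes. Of these, 62 were tested, because their log2 value was above 6 on 3 arrays or more, and the other 10 (Dnajb7, Dnajb13, Dnajc5b, Dnajc5g, Hspa1l, Hspa12b, Hspb2, Hspb3, Hspb7 and Hspb9) did not exceed 6 on any array. By role the members were 14 HSP70 and HSP110 genes (12 tested), 2 HSP90 genes, the chaperonin pair Hspd1 and Hspe1, 7 small heat shock proteins (3 tested), and 4 class A, 13 class B and 27 class C J proteins (4, 11 and 25 tested). The remaining 3 (labelled name only) matched by symbol but belong to none of these classes. Hspb11 is the intraflagellar transport protein IFT25, Hspbp1 is a nucleotide exchange factor that binds HSP70, and Hspbap1 is named for binding a small heat shock protein. Hsp90ab1 was not analysed here.

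HSP70 proteins bind unfolded stretches of a polypeptide and release them in a cycle driven by ATP. J proteins deliver clients to HSP70 and start its ATP hydrolysis, and HSP110 proteins and other exchange factors reset it, while HSP90, the mitochondrial chaperonin and the small heat shock proteins take up clients at other stages of folding. Heat or misfolded protein in the cytosol induces part of the family through heat shock factor 1, which binds repeats of GAA and TTC, and stress in the endoplasmic reticulum (ER) induces another part through ATF6 and XBP1.

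The study asked how loss of G9a (Ehmt2), the enzyme that methylates histone H3 at lysine 9, changes striatal neurons of either subtype in mice given saline or cocaine. All mice were males of 2 to 5 months on a mixed background, C57BL/6 for the G9a line and 129/Sv for the BAC line, and all carried G9a fl/fl and a TRAP transgene, which puts a GFP tag on ribosomal protein L10a so that ribosomes of 1 cell type can be pulled down. Controls were Drd1-TRAP; G9a fl/fl or Drd2-TRAP; G9a fl/fl, and mutants carried Drd1-Cre or Drd2-Cre in addition, so that the Cre transgene itself went with the genotype. Each mouse had 8 injections of saline or of cocaine at 20 mg/kg/day and was taken 2 h after the last. The 8 groups held 2 (saline) and 4 (cocaine) D1 control arrays, 3 and 4 D1 mutant arrays, 3 and 4 D2 control arrays and 3 and 4 D2 mutant arrays. Each array was 1 mouse, and TRAP material was amplified in 2 cycles before hybridisation. Drd2 is also active in cholinergic interneurons, so the D2 material is not of projection neurons alone.

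Ehmt2 lay between 9.95 and 11.01 log2 in all controls and between 8.03 and 9.38 in all mutants, Drd1 between 12.12 and 12.85 in D1 arrays and between 9.71 and 10.65 in D2 arrays, and Drd2 between 6.33 and 7.10 in D1 arrays and between 12.28 and 13.60 in D2 arrays. For D2 mutant cocaine replicate 4 the source name says control while title and genotype say mutant, and it was kept as a mutant. D1 control cocaine replicate 3 stood apart among the members, being the lowest or highest of all arrays for 18 of 62, and it was 1 of 3 arrays in which Ttr, a choroid plexus marker, was above 9.5. In bulk material of this kind, fewer cells of a type and less RNA per cell cannot be told apart. Oligodendrocyte markers moved with subtype and genotype: the mean of 10 markers ranged from 6.82 to 7.34 in D1 controls, 6.89 to 7.61 in D1 mutants, 6.78 to 7.66 in D2 controls and 7.92 to 8.23 in D2 mutants. The mean of cholinergic markers ranged from 5.08 to 5.22 in D1 controls, 5.73 to 6.32 in D2 controls and 6.12 to 6.69 in D2 mutants. Of the 9 tested oligodendrocyte markers, 6 were lower in D1 than in D2 controls and 7 rose in D2 mutants.

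Promoters were read from RefSeq (GRCm38.p6), which held 59 of the 72 members with 76 windows from 250 bases before to 50 after a start. Windows of the same gene can overlap, so shares of windows do not count separate promoters. The 3-unit heat shock element (GAA, TTC and GAA, each 2 bases apart), searched like the other motifs on both strands, stood in windows of 4 members (Dnajb6, Hspd1, Hspe1 and Hsph1), in 7.89% of member windows against 0.603% of all 32851 windows. Its 2-unit form GAANNTTC, which the longer motif contains, stood in 14 members, in 21.1% of their windows against 7.86% of all. The ER stress response element (CCAAT and CCACG, 9 bases apart) stood in Dnajc3, Hsp90b1 and Hspa5, in 3.95% against 0.119%. The cAMP response element TGACGTCA stood in Dnajc27, in 1.32% against 1.79%. The 250 bases before the start are printed for Hspa1a, which fell with G9a loss, and its near-identical copy Hspa1b, for Dnajb3 that rose with it, for Dnajb5 that rose with cocaine (the first of its 3 windows), and for Hspe1 and Hspa5 as examples with a 3-unit heat shock element and an ER stress element. Capitals mark the matched letters, and the Hspa1a and Hspa1b stretches differ at 3 of 250 positions (98.8% identical).
Hspa1a, chr17:34972157-34972406, minus strand: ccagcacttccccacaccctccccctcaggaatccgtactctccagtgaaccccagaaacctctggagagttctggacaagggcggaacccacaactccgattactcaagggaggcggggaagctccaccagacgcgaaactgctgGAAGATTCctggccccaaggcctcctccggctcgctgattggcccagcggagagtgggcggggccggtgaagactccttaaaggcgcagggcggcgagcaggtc
Hspa1b, chr17:34959239-34959488, minus strand: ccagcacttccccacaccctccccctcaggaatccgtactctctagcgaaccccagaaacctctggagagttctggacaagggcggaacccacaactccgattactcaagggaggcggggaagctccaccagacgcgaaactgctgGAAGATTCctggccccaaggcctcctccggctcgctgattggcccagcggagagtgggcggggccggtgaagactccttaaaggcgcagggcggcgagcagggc
Hspe1, chr1:55087898-55088147, plus strand: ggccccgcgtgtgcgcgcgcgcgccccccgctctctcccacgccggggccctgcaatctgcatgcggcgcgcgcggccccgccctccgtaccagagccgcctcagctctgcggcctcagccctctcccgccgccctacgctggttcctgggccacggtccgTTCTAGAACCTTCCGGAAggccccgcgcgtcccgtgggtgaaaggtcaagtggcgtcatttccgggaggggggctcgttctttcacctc
Hspa5, chr2:34771840-34772089, plus strand: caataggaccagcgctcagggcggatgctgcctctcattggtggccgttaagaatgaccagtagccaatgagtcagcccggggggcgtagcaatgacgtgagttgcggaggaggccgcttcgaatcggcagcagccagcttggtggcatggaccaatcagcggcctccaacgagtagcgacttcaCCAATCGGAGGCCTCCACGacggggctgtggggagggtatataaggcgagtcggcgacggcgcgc
Dnajb3, chr1:88205749-88205998, minus strand: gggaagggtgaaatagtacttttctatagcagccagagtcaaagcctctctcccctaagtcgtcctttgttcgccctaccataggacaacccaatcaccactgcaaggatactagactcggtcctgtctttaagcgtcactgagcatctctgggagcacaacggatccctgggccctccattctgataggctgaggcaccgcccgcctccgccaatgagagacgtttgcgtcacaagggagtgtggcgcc
Dnajb5, chr4:42949617-42949866, plus strand: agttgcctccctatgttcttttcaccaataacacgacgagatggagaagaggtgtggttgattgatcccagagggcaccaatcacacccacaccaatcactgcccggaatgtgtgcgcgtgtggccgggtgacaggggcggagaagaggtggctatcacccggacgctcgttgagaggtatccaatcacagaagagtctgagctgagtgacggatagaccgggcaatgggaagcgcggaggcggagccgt
Neither the Dnajb3 stretch nor this Dnajb5 stretch held any of these letters, which says only that they are not in these windows.

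Over the 27 arrays the members spread about as widely as other genes. The range of a tested member ran from 0.35 log2 (Dnajc5, the synaptic vesicle J protein known as cysteine string protein) to 1.57 log2 (Hspa1b), with a median of 0.79 against 0.80 for all tested genes. For 40 of 62 members (64.5%) it was under 1 log2, against 68.6% of all tested genes. The constitutive HSP70 Hspa8 stayed between 12.99 and 13.48 on every array, and Hsp90aa1, the inducible cytosolic HSP90, between 12.46 and 13.11. Levels are not compared between genes, because probe sets differ in their response.

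**Figure D1:**
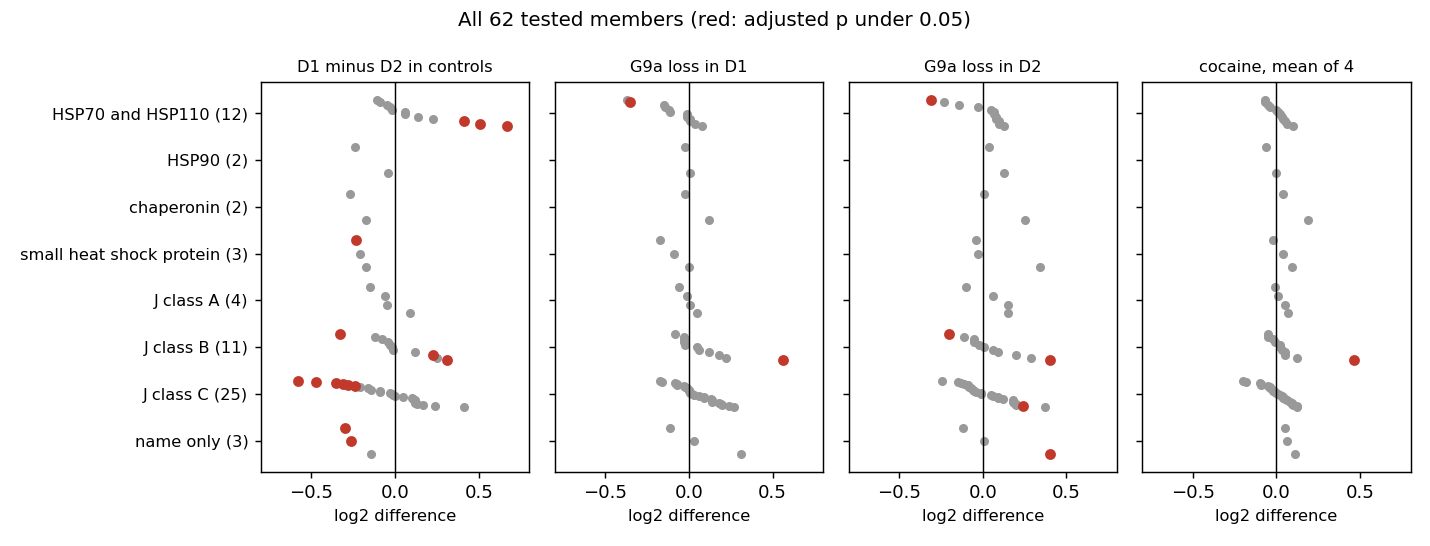
Each point is 1 of the 62 tested members, placed by its log2 difference (horizontal axis) and grouped by role (vertical axis, number tested in brackets) in each of 4 comparisons; red points passed at an adjusted p under 0.05. The subtype comparison holds 15 red points, G9a loss 2 in D1 and 5 in D2 neurons, and the cocaine comparison 1.

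The first comparison set D1 against D2 neurons in controls, the mean of saline and cocaine groups, by limma's moderated test with Benjamini-Hochberg adjustment over 12017 genes. Among the members 5 were higher and 10 lower in D1 neurons, 15 of 62 or 24.2%, while 29% of all tested genes were called (11.9% higher, 17.1% lower). The share is below the background, so the members as a group did not stand out between the subtypes. With cyclic loess scaling, which moved the median of all genes by under 0.1, the split became 11 higher and 8 lower, so that no direction is given for the family.

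The HSP70 and HSP110 genes gave 3 of the higher members and no lower one. Hspa2, an HSP70 best known from male germ cells, read 7.69 and 8.15 in saline and 8.16, 7.82, 7.21 and 8.13 in cocaine D1 controls, against 7.42, 7.09 and 6.85 in saline and 7.42, 7.39, 7.06 and 7.31 in cocaine D2 controls. All D1 arrays but cocaine replicate 3 lay above every D2 array. The difference was 0.67 log2 (SE 0.140, 1.59-fold, limma adjusted p = 0.000821), and it was 0.56 (adjusted p = 0.00132) in mutants, where the subtypes did not overlap. Hspa12a, a distant HSP70 relative, read 8.27, 8.66 and 8.99 (lowest, median and highest of 6) in D1 controls and 7.90, 8.15 and 8.43 (of 7) in D2 controls, a difference of 0.51 (SE 0.117, adjusted p = 0.00181). It was 0.77 in saline and 0.25 in cocaine mice, and cocaine minus saline in D1 controls was -0.42. Hspa4, an HSP110 that exchanges the nucleotide of HSP70, read 10.40, 10.77 and 10.95 in D1 and 9.98, 10.31 and 10.44 in D2 controls, which overlapped only at the lowest D1 array (0.41, SE 0.0968, adjusted p = 0.00216). Another 2 Hspa4 probe sets of the array gave 0.45 and 0.39, and the fourth, below 6 on average, gave -0.12.

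Of the 25 tested class C J proteins 6 were lower in D1 controls and none was higher, where 17.1% of all tested genes were lower and 11.9% higher, so the count is near the background. Dnajc14, an ER membrane J protein known to bind the D1 receptor and to affect its export to the surface, read 9.14 and 8.88 in saline and 9.38, 9.28, 8.40 and 9.08 in cocaine D1 controls. In D2 controls it read 9.70, 9.51 and 9.91 in saline and 9.31, 9.65, 9.43 and 9.60 in cocaine mice. Only the highest D1 array overlapped the lowest D2 array, and the difference was -0.58 (SE 0.134, 1.5-fold lower in D1, adjusted p = 0.00185), with -0.37 and -0.66 on its other probe sets. In mutants Dnajc14 differed by -0.33 (adjusted p = 0.0379), by -0.07 (adjusted p = 0.746) with the glial markers as a covariate, and by -0.18 (adjusted p = 0.296) with the mean of its probe sets. Dnajc17, a nuclear J protein linked to splicing, was at 7.58, 7.94 and 8.35 in D1 and 8.07, 8.38 and 8.62 in D2 controls, a difference of -0.47 (SE 0.109, adjusted p = 0.00213). In mutants the subtypes did not overlap for Dnajc17 (7.82 to 8.05 against 8.33 to 8.90). The other 4 were Dnajc15 of the inner mitochondrial membrane (-0.35), Dnajc4 (-0.31), Dnajc21, which serves ribosome maturation (-0.28), and the histone-binding Dnajc9 (-0.24). With the mean of its probe sets Dnajc21 was at -0.09 in both controls (adjusted p = 0.315) and mutants (adjusted p = 0.247) and lost both calls, and in controls it was -0.48 in saline and -0.08 in cocaine mice.

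Class B was mixed. Dnajb14, of the ER membrane, and Dnajb2, a neuronal J protein that passes ubiquitinated clients to the proteasome, were higher in D1 controls, by 0.31 (SE 0.106, adjusted p = 0.0285) and 0.23 (SE 0.0634, adjusted p = 0.00675). For Dnajb2 the difference was 0.00 in saline and 0.47 in cocaine mice, so the mean describes neither, while for Dnajb14 it was 0.32 and 0.30. Dnajb9, the ER J protein that is among the strongest targets of the unfolded protein response, was lower (-0.33, SE 0.0981, adjusted p = 0.0137), by -0.50 in saline and -0.15 in cocaine mice. Its partner in the ER lumen, Hspa5, differed by -0.09 and did not pass. Among the other roles Hspb1 (HSP27) differed by -0.23, Hspb11 by -0.30 and Hspbp1 by -0.26, and neither HSP90 gene nor the chaperonin pair passed in controls. The Hspb11 difference was -0.56 in saline and -0.04 in cocaine mice, and with the mean of its probe sets it was -0.16 (adjusted p = 0.0701). Whether subtype differences changed with the drug was not tested. Hspbp1 ran from 9.26 to 9.53 in D1 and from 9.54 to 9.85 in D2 controls, so the subtypes nearly touched. How many of all tested genes separate by subtype was not counted.

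**Figure D2:**
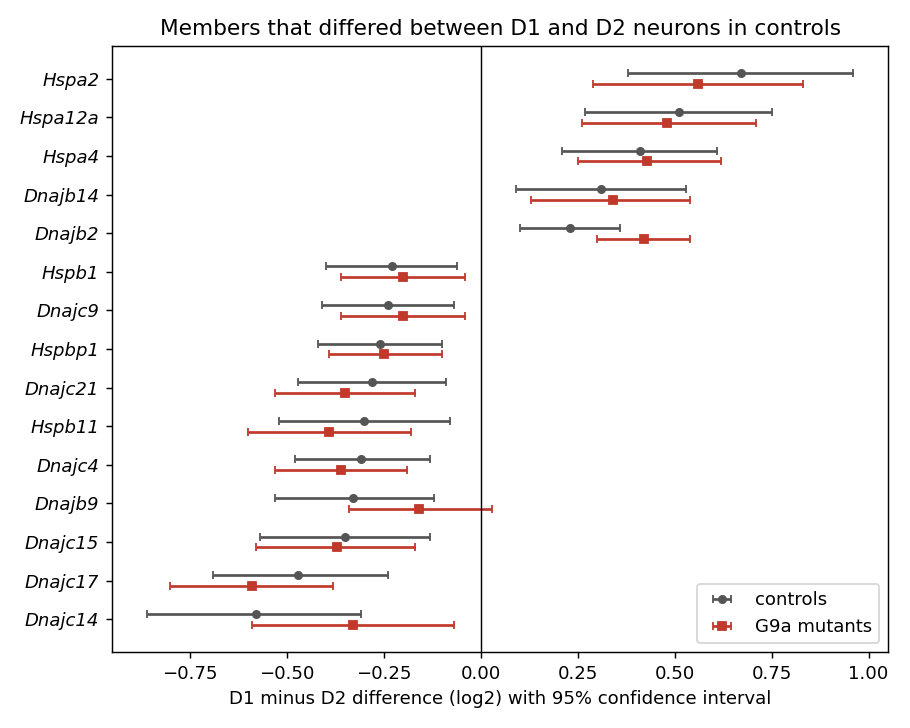
Log2 difference of D1 minus D2 neurons (horizontal axis) with its 95% confidence interval for the 15 members that passed in controls (grey circles), and the same members in mutants (red squares). For 14 of the 15 both points lie on the same side of 0 with intervals that exclude it, and for Dnajb9 the interval in mutants reaches across 0.

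Without replicate 2 of the saline D1 controls, which left a single array there whose spread was taken from the other groups, 6 members were called in place of 15. These 6 (Hspa2, Hspa12a, Hspa4, Dnajc14, Dnajc17 and Hspbp1) passed in all 27 fits that left out 1 array. Of the other 9, Dnajb2, Dnajb9 and Dnajc4 lost the call only without that array, and Hspb11 kept it in 18, Hspb1 in 20, Dnajc9 in 21, Dnajb14 in 22 and Dnajc15 and Dnajc21 in 25 of 27. Only the 6 D1 and 7 D2 control arrays enter the estimates of this comparison. Fits without a mutant array changed only the shared spread and the adjustment, and none of the 15 calls was lost there, so the counts out of 27 overstate stability. Without D1 control cocaine replicate 3, 20 members were called. The 6 of 9 oligodendrocyte markers that were lower in D1 controls moved with the lower members, as did 3 of 3 cholinergic markers. Higher in D1 controls, with the higher members, were 5 of 7 GABAergic interneuron markers (list mean 7.05 to 7.47 in D1 and 6.69 to 6.93 in D2 controls), 2 of 2 tested cortical excitatory markers (4.52 to 6.91 against 4.15 to 4.59) and 2 of 7 astrocyte markers (7.31 to 7.91 against 6.86 to 7.37). With the mean of glial markers as a covariate 17 members were called, and the part of the neuronal markers in the differences was not tested.

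In mutants 10 members were higher and 20 lower in D1 neurons, 48.4% against 42.4% of all tested genes (16.6% higher, 25.8% lower). These included 14 of the 15 called in controls, all with the same sign, or 93.3% of the control list and 46.7% of the mutant list. In the small heat shock proteins all 3 tested members were lower: Hspb8, which works with Bag3 in the autophagy of damaged protein, by -0.65 (SE 0.115, adjusted p = 8.41e-05), Hspb6 by -0.29 and Hspb1 by -0.20. Both chaperonin genes (Hspe1 -0.40, Hspd1 -0.20), both HSP90 genes (Hsp90b1 -0.28, Hsp90aa1 -0.19), mitochondrial Hspa9 (-0.27) and Hspa8 (-0.14) were also lower. Dnajc27, a Rab-like GTPase with a J domain, was higher by 0.54 (SE 0.0881, adjusted p = 2.76e-05), and Dnajc18 (0.49), Dnajb2 (0.42), Dnajc16 (0.36) and the cytosolic Dnajb1 (0.35) were higher too. With the mean of all probe sets Dnajc16 was at 0.06 (adjusted p = 0.501) and Dnajb1 at 0.05 (adjusted p = 0.500), and both calls were lost. With the glial covariate 11 of the 30 stayed called, 7 higher and 4 lower, and with cyclic loess 15 were higher and 11 lower. Hspb8 and Dnajc27 passed under both settings. The other Dnajc27 probe set gave 0.25, and the other Hspb8 probe sets gave -1.03 and -0.23.

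The second comparison set mutants against controls within a subtype, saline and cocaine weighted equally. In D1 neurons 2 members passed, Dnajb3 higher and Hspa1a lower (3.23% of 62, against 4.22% of all tested genes, 3.1% higher and 1.12% lower). In D2 neurons 5 passed, 3 higher and 2 lower (8.06% against 12.2%, 8.41% higher and 3.82% lower). With cyclic loess 4 were higher and 4 lower in D2 neurons and with median centring 4 and 1, and under both only the Dnajb3 call was kept in D1 neurons, where Hspa1a had adjusted p-values of 0.054 and 0.051. Both shares are below the background, and Dnajb3 and Hspa1a passed in both subtypes. The median change of the members was 0.00 in D1 and 0.05 in D2 neurons, against 0.01 and 0.02 for all tested genes.

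Dnajb3, a class B J protein best known from testis, read 5.91 and 5.62 in saline and 5.46, 5.53, 5.64 and 5.82 in cocaine D1 controls. In D1 mutants it read 5.83, 6.56 and 6.34 in saline and 6.11, 6.41, 6.16 and 6.34 in cocaine mice. All D1 mutants but saline replicate 1 lay above every D1 control, and no control exceeded the test's floor of 6. The change was 0.56 log2 (SE 0.116, 1.47-fold, adjusted p = 0.00302), 0.48 in saline and 0.64 in cocaine mice. In D2 neurons controls ran from 5.51 to 5.84, and mutants read 6.28, 5.74 and 6.21 in saline and 6.18, 6.10, 5.91 and 6.47 in cocaine mice. Here too a single mutant, saline replicate 2, lay among the controls, and the change was 0.40 (SE 0.109, adjusted p = 0.0151). The difference between the subtypes was -0.16 (95% confidence interval -0.49 to 0.17). The rise is a shift at the low end of the scale, on 1 probe set. Dnajb3 was above the floor of 6 on 11 arrays, all of mutants, so it entered the test only through the group where it is high and its place among the calls supports nothing about the members. With no filter on low values its adjusted p was 0.0031 in D1 and 0.0175 in D2 neurons. The call was lost in D1 neurons without saline control replicate 2 (0.49, adjusted p = 0.0509), and in D2 neurons without saline mutant replicate 1 (0.35, adjusted p = 0.0518) or with the array of unclear label counted as a control (0.27, adjusted p = 0.232).

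Hspa1a and Hspa1b encode the same stress-inducible HSP70. Both lay near the test's floor of 6, with means of 6.22 for Hspa1a, on its 1 probe set, and 5.895 for Hspa1b. With no array above 6.93, Hspa1a was not tested at a floor of 7. Hspa1a read 6.23 and 6.40 in saline and 6.29, 6.93, 6.47 and 6.41 in cocaine D1 controls, and 6.39, 6.09 and 5.98 in saline and 6.14, 5.73, 6.02 and 6.09 in cocaine D1 mutants. In D2 controls it read 6.32, 6.28 and 6.31 in saline and 6.51, 6.38, 6.50 and 6.26 in cocaine mice, and in D2 mutants 6.03, 6.02 and 6.30 and 6.02, 5.88, 5.92 and 6.08. In each subtype 1 mutant array, of a saline mouse, overlapped the controls, and none of the cocaine mutants did. The change was -0.35 (SE 0.0968, adjusted p = 0.0368) in D1 and -0.31 (SE 0.0906, adjusted p = 0.0241) in D2 neurons. By drug it was -0.17 in saline and -0.53 in cocaine D1 mice, and -0.18 and -0.44 in D2 mice. The test of genotype by cocaine did not pass in either subtype (-0.36 in D1, -0.25 in D2). Hspa1b moved the same way on its own probe set (-0.37, adjusted p = 0.262 in D1, and -0.23, adjusted p = 0.329 in D2) but did not pass. The 2 genes are near-identical copies, so their signals cannot be taken as independent. In D1 neurons the Hspa1a call kept its side in 20 of 27 fits that left out 1 array, where fits without a D2 array do not change its estimate. It was lost without saline control replicate 1 (-0.39, adjusted p = 0.0812) or 2 (-0.31, 0.212), cocaine control replicate 2 (-0.28, 0.0652), saline mutant replicate 2 (-0.33, 0.0920) or 3 (-0.30, 0.100), and cocaine mutant replicate 2 (-0.30, 0.0820) or 3 (-0.35, 0.0531). In D2 neurons it was lost without saline control replicate 1 (-0.31, 0.0533) and saline mutant replicate 1 (-0.29, 0.0610) or 2 (-0.29, 0.0676). The D1 count of 2 became 0 without saline control replicate 2, 4 without cocaine control replicate 3, and 1 without saline control replicate 1, cocaine control replicate 2, saline mutant replicate 2 or cocaine mutant replicate 2 or 3.

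The other 3 calls were in D2 neurons. Hspb11, a subunit of the transport machinery of cilia, read 10.03, 10.19 and 10.51 in saline and 9.67, 10.30, 10.13 and 10.29 in cocaine D2 controls, against 10.52, 10.47 and 10.62 and 10.61, 10.77, 10.44 and 10.61 in D2 mutants. All mutants lay above all controls except saline control replicate 3, which was above the lowest mutants. The change was 0.40 (SE 0.102, adjusted p = 0.00898), against 0.31 (SE 0.109, adjusted p = 0.128) in D1 neurons. In D2 neurons Hspb11 passed in all 27 fits that left out 1 array, though fits without a D1 array do not change the D2 estimates here and below. Dnajb2 fell by 0.20 (SE 0.0593, adjusted p = 0.0253), from 10.19, 10.15 and 10.08 in saline and 9.91, 9.86, 9.82 and 10 in cocaine controls to 9.80, 9.83 and 10.11 and 9.78, 9.81, 9.60 and 9.72 in mutants. All cocaine mutants lay below all controls, while saline mutant replicates 2 and 3 lay among them. It kept its call in 22 of 27 fits that left out 1 array. Dnajc4 rose by 0.24 (SE 0.0801, adjusted p = 0.0496), with controls from 7.82 to 8.12 and mutants from 8.10 to 8.44, and kept its call in 5 of 27 fits that left out 1 array. Hspb8 (0.34, adjusted p = 0.0523) and the ER cochaperone Dnajc3 (0.37, adjusted p = 0.0563) narrowly missed the threshold and were not called. For Hspb8 the change was 0.06 in saline and 0.63 in cocaine D2 mice, so the mean describes neither. Its other probe sets gave 0.64 and 0.08, and its mean of 6.38 lay near the floor of 6. For Dnajc3 the change was 0.39 in saline and 0.35 in cocaine D2 mice.

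**Figure D3:**
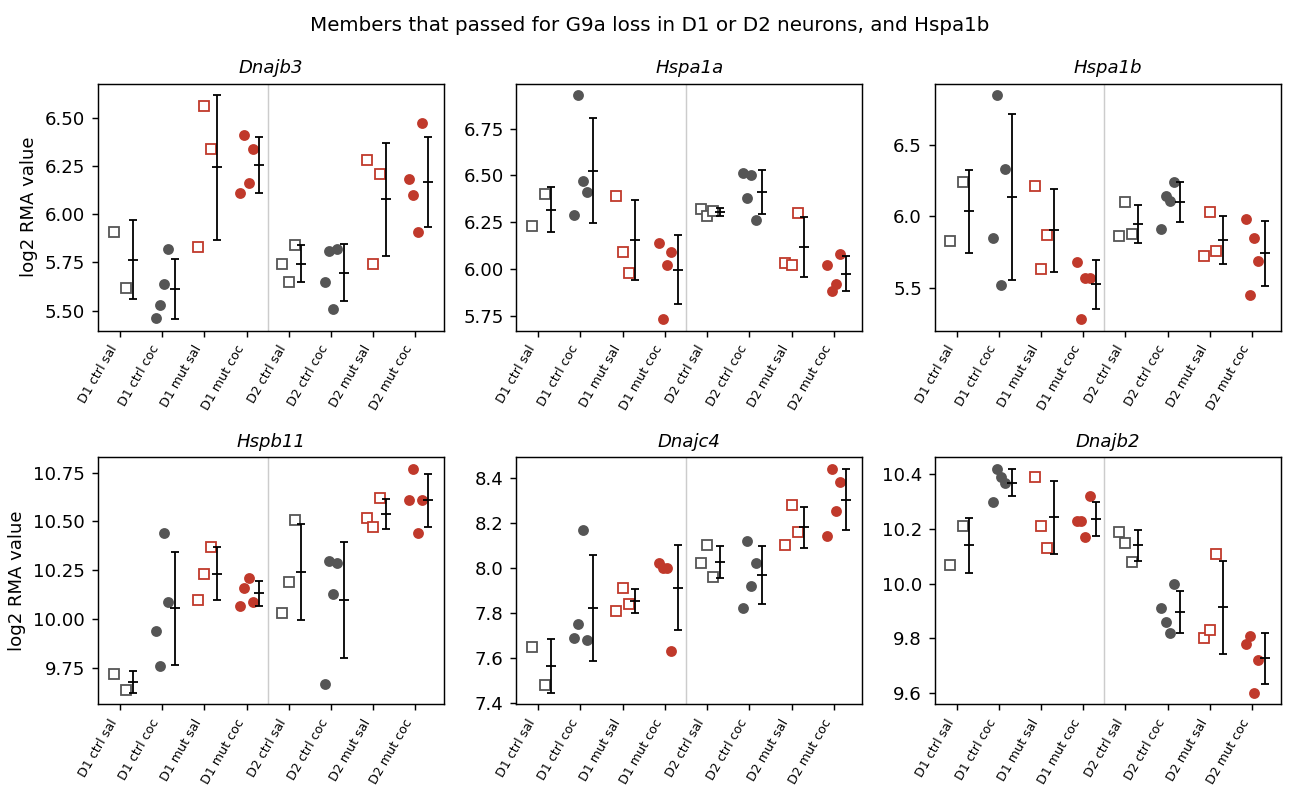
Log2 RMA value (vertical axis) on every array for the 5 members that passed for G9a loss in D1 or D2 neurons and for Hspa1b, in the 8 groups; open squares are saline and filled circles cocaine, grey controls and red mutants, with mean and SD beside each group. Dnajb3 lies higher in mutants of both subtypes, where 1 saline array of each overlaps the controls, and Hspa1a lies lower, most clearly in the cocaine groups.

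No member differed between the subtypes in its response to G9a loss by limma at an adjusted p under 0.05, while 0.99% of all tested genes did (0.657% higher and 0.333% lower in D2). An unadjusted p under 0.05 was found for 5 of 62 members and for 1474 of 12017 genes. The smallest p-values were those of Dnajc27 (0.20 in D1 and -0.24 in D2 neurons, difference -0.44, adjusted p = 0.117), Hspb8 (-0.09 and 0.34, difference 0.43, adjusted p = 0.274) and Dnajc2, a ribosome-bound J protein (-0.17 and 0.12, difference 0.29, adjusted p = 0.338). The other Dnajc27 probe set (mean 8.12) fell in both subtypes, by -0.20 in D1 and -0.37 in D2 neurons, a difference of -0.16. For Hspb8 the other probe sets gave differences of 0.60 and 0.09. The 7 of 9 oligodendrocyte markers that rose in D2 mutants moved in the direction of the 3 higher D2 calls and opposite to the 2 lower ones. With the glial covariate no member passed in D2 neurons, and 4.25% of all genes did, while the estimates were 0.50 for Dnajb3 (adjusted p = 0.0682), 0.35 for Hspb11 (0.223), -0.33 for Hspa1a (0.200), -0.24 for Dnajb2 (0.134) and 0.23 for Dnajc4 (0.366). The oligodendrocyte list mean, part of this covariate, did not overlap between D2 controls (6.78 to 7.66) and D2 mutants (7.92 to 8.23). The covariate thus goes with genotype there, so the lost calls cannot separate them. The part of these markers in the calls was not tested further. With the array of unclear label counted as a control 1 member was called in D2 neurons, none of the 5, and with it left out 6 were. Single arrays moved the D2 count by over 1.5 times: it was 1 without saline mutant replicate 1, 2 without saline control replicate 1, 3 without saline control replicate 2 or saline mutant replicate 2, and 8 without cocaine control replicate 4 or without D1 control cocaine replicate 3.

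Other chaperone genes were taken from 6 lists chosen with earlier results of these data known. Of the 14 tested HSP70 regulators outside the family, 3 rose in D1 mutants and 2 in D2 mutants, and none fell, where 4.22% of all tested genes were called in D1 and 12.2% in D2 mutants. Sil1, the exchange factor of Hspa5 in the ER, rose by 0.75 (SE 0.0905, 1.68-fold, adjusted p = 2.14e-06) in D1 and 0.98 (SE 0.0846, 1.98-fold, adjusted p = 3.28e-09) in D2 neurons, a larger change than that of any member. Bag3, the exchange factor that pairs with Hspb8, rose by 0.47 (adjusted p = 0.0180) and 0.79 (adjusted p = 1.23e-05), and Bag1 by 0.35 (adjusted p = 0.00174) in D1 neurons. In D2 neurons 3 of 14 chaperonin and prefoldin genes rose (Pfdn5 by 0.35, Pfdn4 by 0.28, Cct2 by 0.16), and so did mitochondrial Trap1 (0.21) and the secreted chaperone Clu (0.33), 2 of 7 other organelle chaperones. Fkbp5, an HSP90 cochaperone of steroid receptors, fell by 0.33 in D2 neurons, 1 of 17 HSP90 cochaperones, and Txndc5 fell by 0.28, 1 of 21 genes of ER folding and the unfolded protein response. Neither of the 2 tested heat shock factor genes passed with G9a loss. Between subtypes 29% of all tested genes were called in controls and 42.4% in mutants. The lists lay on both sides of that share in controls and above it in mutants, and whether they exceeded it was not tested. In controls 8 of 17 HSP90 cochaperones (4 higher, 4 lower in D1), 4 of 14 HSP70 regulators (all lower) and 9 of 21 ER genes (3 higher, 6 lower) were called, among them Manf (-0.77, adjusted p = 8.78e-06), Bag1 (-0.48, adjusted p = 1.27e-05) and Sel1l (0.37, adjusted p = 6.32e-05). Also called were 3 of 14 chaperonin and prefoldin genes (all lower), 2 of 7 other chaperones (both higher) and 1 of 2 heat shock factor genes (Hsbp1, lower). In mutants 10 of 17, 9 of 14, 11 of 21, 9 of 14, 3 of 7 and 1 of 2 were called, in the same order of lists, among them Pfdn5 (-0.85) and Atf6 (0.64). The called chaperonin and prefoldin genes were all lower in D1 mutants, as were Hsbp1 and all called HSP70 regulators but Bag4. The other lists went both ways, and 25.8% of all tested genes were lower.

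The third comparison set cocaine against saline. No member passed in any of the 4 pairs of groups by limma. At an unadjusted p under 0.05 were 8, 6, 4 and 3 of 62 members in D1 controls, D1 mutants, D2 controls and D2 mutants. Of all 12017 tested genes 1402, 1412, 1130 and 588 were, so these member counts are near the background. Of all tested genes 0.0666% (all higher) passed in D1 controls, 0.0915% in D1 mutants (0.0832% higher, 0.00832% lower), 0.133% in D2 controls (0.0166% higher, 0.117% lower) and 0% in D2 mutants. In the mean of the 4 differences 1 member passed, Dnajb5, 1.61% of 62 against 0.799% of all tested genes (0.649% higher, 0.15% lower). An unadjusted p under 0.05 was found for 8 of 62 members and for 1210 of 12017 genes.

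Dnajb5 is a class B J protein reported to hold the histone deacetylase HDAC4 in a redox-sensitive complex. In D1 controls it read 8.67 and 8.40 after saline and 9.33, 9.18, 8.59 and 9.63 after cocaine. In D1 mutants it read 8.25, 8.49 and 8.58 after saline and 9.08, 9.19, 9.33 and 9.30 after cocaine. All cocaine arrays but control replicate 3 lay above all saline arrays of D1 neurons. In D2 controls it read 8.81, 8.81 and 8.85 after saline and 8.99, 8.87, 8.99 and 8.92 after cocaine, and in D2 mutants 8.83, 9.08 and 9.20 and 9.76, 9.54, 8.81 and 9.14. The D2 control groups did not overlap but lay close, and the D2 mutant groups overlapped. The differences were 0.65 (SE 0.211, adjusted p = 0.230) in D1 controls, 0.78 (SE 0.186, adjusted p = 0.0844) in D1 mutants, 0.12 (SE 0.186, adjusted p = 0.906) in D2 controls and 0.28 (SE 0.186, adjusted p = 0.995) in D2 mutants. Their mean was 0.46 (SE 0.0963, 1.37-fold, adjusted p = 0.0183), and whether D1 and D2 neurons differed was not tested. The other 2 probe sets of Dnajb5 gave 0.23 and 0.18 in the mean of 4. They gave 0.18 and 0.07 in D1 controls and 0.30 and 0.52 in D1 mutants. In D2 neurons they gave 0.31 and 0.03 in controls and 0.15 and 0.09 in mutants. The size of the D1 control difference thus rests on 1 probe set. The call was lost without replicate 2 of the saline D1 controls (0.42, adjusted p = 0.0994), and without D1 control cocaine replicate 3 Dnajb5 passed in D1 controls alone (0.84, adjusted p = 0.0344) and in D1 mutants (0.78, adjusted p = 0.0304).

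None of the stress-inducible members passed for cocaine. In the mean of 4 differences Hspa1a was at 0.00 (95% confidence interval -0.13 to 0.14), Hspa1b at -0.05 (-0.27 to 0.16), Hsph1, an HSP110, at 0.04 (-0.06 to 0.15), Hsp90aa1 at 0.00 (-0.11 to 0.11), Dnajb1 at 0.05 (-0.09 to 0.20) and Hspb1 at 0.04 (-0.08 to 0.15). The ER members Hspa5 (0.02, -0.11 to 0.16), Hsp90b1 (-0.06, -0.22 to 0.10) and Dnajb9 (-0.01, -0.14 to 0.13) did not pass either. Intervals that exclude 0 without passing the adjusted test were those of Hspe1 (0.19, 0.05 to 0.34), Hspa8 (0.10, 0.02 to 0.18), Dnajc27 (-0.18, -0.32 to -0.05) and Dnajc3 (-0.20, -0.39 to -0.01), and those of Dnajb12 (0.12), Dnajc7 (0.09) and Dnajc8 (0.08), of which Dnajb12 and Dnajc8 are named after their values were seen. For 61 of 62 members (98.4%, against 99% of all tested genes) the whole interval lay within 1.5-fold of no change. The 4 members with a 3-unit heat shock element ranged from 0.02 to 0.19, and the 3 with an ER stress element from -0.20 to 0.02.

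**Figure D4:**
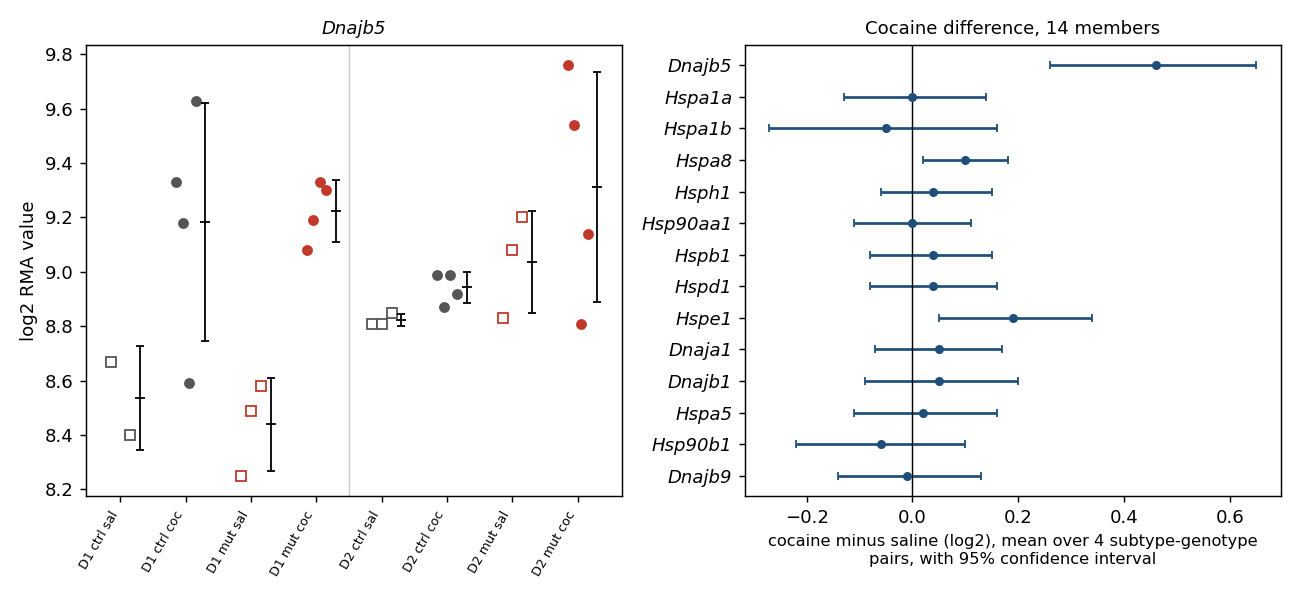
Left, log2 RMA value of Dnajb5 on every array in the 8 groups, with mean and SD (open squares saline, filled circles cocaine, grey controls, red mutants); right, cocaine minus saline (log2, mean of 4 subtype and genotype pairs) with its 95% confidence interval for Dnajb5 and 13 stress-inducible or abundant members. The Dnajb5 interval runs from 0.26 to 0.65, and that of Hspa1a from -0.13 to 0.14.

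Within single pairs of groups the members with the smallest p-values differed. In D1 controls these were Hspa8 (0.29, adjusted p = 0.195), Dnajb5 and Dnajb1 (0.41, adjusted p = 0.294), and for Hspa8 and Dnajb1 the 2 saline arrays lay below all 4 cocaine arrays. In D1 mutants Hspbp1 read 8.97, 9.30 and 9.11 after saline and 9.56, 9.53, 9.64 and 9.49 after cocaine, without overlap (0.43, SE 0.102, adjusted p = 0.0844), and Hspd1 differed by 0.36 (adjusted p = 0.211). In D2 controls Dnajb2 (-0.25, adjusted p = 0.283), Dnajc27 (-0.33, adjusted p = 0.353) and Dnajc21 (-0.27, adjusted p = 0.489) had lower values after cocaine, each without overlap of the groups. Over the alternatives with all groups kept, Dnajc21 ranged from -0.32 to -0.04. The other Dnajc27 probe set gave -0.06 in D2 controls. How many of all tested genes separate in groups of this size was not counted, so separation in these pairs is not read as a result. In D2 mutants Hspe1 (0.31, adjusted p = 0.980), Dnajb2 (-0.18, adjusted p = 0.980) and Hspb8 (0.35, adjusted p = 0.995) came first. The test of genotype by cocaine called no member and none of the tested genes (0%) in either subtype. At an unadjusted p under 0.05 were 4 of 62 members in D1 and 2 in D2 neurons, and 1340 and 583 of 12017 genes. The smallest p-values in D1 neurons were those of Hspbp1 (0.47, adjusted p = 0.288), Hspd1 (0.45, adjusted p = 0.319) and Hspb11 (-0.48, adjusted p = 0.418), and in D2 neurons those of Hspb8 (0.57), Hspe1 (0.41) and Dnajc24 (-0.26), each with an adjusted p of 0.952. Of the other chaperone lists no gene passed for cocaine in any pair or in the mean. RNA quality, as the log2 ratio of 3-prime over 5-prime control probe sets of actin and Gapdh, differed by 0.113 between cocaine and saline in D1 arrays and by -0.0799 in D2 arrays (two-sided exact permutation p = 0.483 and 0.381).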

How the data were processed

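The deposited values are log2 intensities that the authors made by RMA in Expression Console, which the submitters' processing notes name, for 45101 probe sets of the Mouse Genome 430 2.0 array in 27 arrays. RMA subtracts background, equalises the distribution of the arrays and summarises probes, so a shift shared by most genes would not be seen. Probe sets were named through the platform annotation, those with several symbols were left out, and the brightest probe set stood for a gene. Genes above 6 in at least 3 arrays were tested with limma 3.58.1 (R 4.3.3), with 8 group means, the spread shared by all arrays and Benjamini-Hochberg adjustment over 12017 genes, and called at an adjusted p under 0.05. Subtype and genotype contrasts weight saline and cocaine equally. Named were up to 10 called members of largest change in each direction, the 3 of smallest p where none was called, a fixed set of core members, and up to 3 called genes of smallest p per other list. The members and lists were chosen with earlier results of these data known. The number of arrays limits the precision. The scripts were tested on simulated data. Nothing in the labels shows that same-numbered mice were paired. Alternatives changed the probe set rule, filter, scaling, weights, covariates, arrays and threshold.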

Additional observations from a re-analysis of the deposited data

Results flagged for a closer look

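In 164 groups of 4 arrays (41 members, 4 cocaine groups), 6 held an array far from the other 3 by Dixon's criterion, which chance meets in about 1 of 20 groups. In D1 control cocaine replicate 3, Dnajc4 was at 8.17 (others 7.68 to 7.75) and Dnajc6, the clathrin-uncoating J protein auxilin, at 10.53 (others 11.75 to 11.78). In D1 mutant cocaine replicate 4, Dnajc4 was at 7.63 (others 8.0 to 8.02) and Dnajc18 at 10.13 (others 9.30 to 9.39). Hspb8 was at 6.38 in D1 mutant cocaine replicate 1 (others 6.14 to 6.16), and Dnajc24 at 8.35 in D2 control cocaine replicate 3 (others 8.52 to 8.54).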

How the results depend on the processing

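No result reversed under any alternative, and of the alternatives for named members 2407 kept direction and side of the threshold, 190 lost the call and 16 gained it. For D1 against D2 in controls (15 members called) array weights gave 26 and a required fold of 1.2 gave 0, and in mutants (30) the glial covariate gave 11 and the fold 3. For G9a loss in D1 neurons (2), a floor of 7 and the fold gave 0, array weights 5, and cyclic loess, median centring, the RNA quality covariate and the array of unclear label as a control gave 1 each. In D2 neurons (5) the floor of 7 gave 3, cyclic loess 8, array weights 9, the glial covariate and the fold 0, and that array as a control 1. Dnajb3 and Hspa1a, with highest values of 6.56 and 6.93, could not enter the test at a floor of 7. The loss of their calls there was fixed in advance in both subtypes and says nothing about stability. For the subtype difference of G9a loss (0) the mean of probe sets, array weights, the RNA quality covariate and leaving out the high-Ttr arrays gave 1 each. For cocaine, D1 controls (0) gave 3 with array weights and 1 without the high-Ttr arrays, D1 mutants (0) gave 2 with array weights and 1 with the mean of probe sets or the RNA quality covariate, and the mean of 4 (1) gave 2 with array weights and 0 with the fold. Median centring split the D2 calls of G9a loss into 4 higher and 1 lower. Leaving out 1 array at a time gave 6 to 20 and 21 to 35 calls between subtypes in controls and mutants, 0 to 4 and 1 to 8 for G9a loss in D1 and D2 neurons, 0 to 1 for their difference and for cocaine in D1 controls and in D1 mutants, 0 to 2 for the mean of cocaine differences, and 0 for the other comparisons. Replicate numbers did not pair the arrays (correlation of same-numbered arrays -0.395 to 0.469). With the replicate number as a block 18 and 30 members were called between subtypes, 1 and 6 for G9a loss, and 0 for the mean cocaine difference, where Dnajb5 had an adjusted p of 0.0512. The cause of these changes was not tested. The saline D1 control group of 2 arrays limits the comparisons that use D1 controls.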
